A study of Mus musculus with 12 samples.

Results

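Scn4b, Scn10a, Hcn2, Hcn4, Gja5 and Tbx3 are 6 genes of cardiac sodium current, pacemaking and conduction, picked out by their symbols from the 17379 genes of the deposited heart expression table. All 6 were found, and all 6 passed the filter on low counts among the 13849 genes tested. Expression was measured by mRNA sequencing of 12 mouse hearts taken at 6 months of age, 3 in each of 4 groups. The groups were nontransgenic mice (genotype C57BL/WT), mice homozygous for MYBPC3Δ25bp, a 25 bp deletion in the gene of cardiac myosin-binding protein C, mice heterozygous for HRCS96A, a variant of the histidine-rich calcium-binding protein that sits in the sarcoplasmic reticulum, and compound mice with the heterozygous HRC variant and the homozygous deletion together. The labels describe the mutant mice as transgenic models, and the promoter or construct behind each allele is not given. The nontransgenic and the deletion group each held males as replicates 1 and 2 and a female as replicate 3, and all HRC variant and compound mice were female. The labels name the tissue only as heart, with no chamber. Nothing in them says more about how the samples of a group were obtained, so that p-values speak only of the spread among those samples.

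The sodium current carries the upstroke of the action potential in working muscle and in the fast conduction pathways. Its channels pair a pore-forming alpha subunit with beta subunits, such as the product of Scn4b, that modify gating. HCN channels carry the funny current that drives diastolic depolarisation in the sinoatrial node, where Hcn4 is the leading isoform. Connexins form the gap junctions between muscle cells. Connexin 40, the product of Gja5, is found in atrial muscle, in the His-Purkinje system and in arterial endothelium. Connexin 43 (Gja1) is the main connexin of ventricular muscle but is not confined to it. Tbx3 is a T-box repressor that keeps nodal tissue apart from the working muscle around it. In RNA from a piece of heart, fewer cells of a type and less RNA per cell cannot be told apart.

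Read depth was even, with total counts from 15615189 to 20581196 per library. Ventricular muscle markers were abundant in every library, with a summed level of 19500 to 32300 CPM (read counts relative to library size, scaled by TMM). Atrial muscle markers were uneven. The summed level of 16 atrial markers was 5600 to 13000 CPM in the nontransgenic hearts, 5500 to 9020 with the deletion, 1730 to 12400 with the HRC variant and 1370 to 1960 in the compound hearts. Myl7, the atrial myosin light chain, stood at 475, 1140 and 539 CPM in the nontransgenic libraries, at 834, 669 and 679 with the deletion, at 1350, 431 and 0.999 for the HRC variant and at 6.97, 1.12 and 59.6 in the compound libraries. Thus 4 libraries, HRC variant replicate 3 and all compound replicates, stood apart from the other 8. On the mean log2 CPM of the 15 markers that passed the filter they lay at 3.34 to 4.70, against 6.27 to 7.79. Bmp10, an atrial growth factor, had 0.608 and 0.449 CPM and none in the compound libraries, but it was also low in single libraries of the other groups, at 0.953 CPM in nontransgenic replicate 1, 1.97 in deletion replicate 2 and 0.444 in HRC variant replicate 3. Every compound library was low in atrial markers and every nontransgenic and deletion library was high. Atrial level and compound genotype therefore cannot be told apart in these samples. Values with the atrial level as a covariate are given below as a description, and its part in the differences was not tested.

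Each group was compared in a single edgeR model with sex as a term, and a gene counted as called where its adjusted p (Benjamini-Hochberg) was below 0.05. None of the 6 genes was called in any of the 6 contrasts, and neither was any other gene, so that 0% of the 13849 tested genes were called in each. At an unadjusted edgeR p under 0.05, 1 of the 6 genes passed for compound against nontransgenic hearts (Gja5), where 6.36% of all genes did. With the deletion against nontransgenic, 2 passed (Tbx3 and Hcn2), against 8.16% of all genes, and with the HRC variant against nontransgenic none did, against 6.23%. Compound against deletion hearts gave 2 (Gja5 and Scn4b), against 5.73%, compound against HRC variant gave 1 (Gja5), against 6.3%, and the interaction gave 1 (Hcn2), against 8.54%. DESeq2, run as an alternative, called 1 of these 6 genes in 1 contrast, Gja5 in compound against HRC variant hearts, where it called 0.332% of genes. In the other contrasts it called none of the 6. It gave no adjusted p, however, for Hcn4, Scn10a and Tbx3 in the interaction and for Scn10a in deletion against nontransgenic. Its shares are of the genes given an adjusted p. Of 13843 genes, 0.275% were called for compound against nontransgenic, 0.181% for HRC variant against nontransgenic and 0.0433% for compound against deletion. The shares were 0.963% of only 9549 genes for deletion against nontransgenic and 0.864% of only 5790 for the interaction. The median log2 difference of the 6 genes was -0.12 in the compound, -0.47 in the deletion and -0.21 in the HRC variant hearts against nontransgenic, beside -0.00, -0.00 and 0.00 over all tested genes. These 3 comparisons share the nontransgenic samples.

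**Figure D1:**
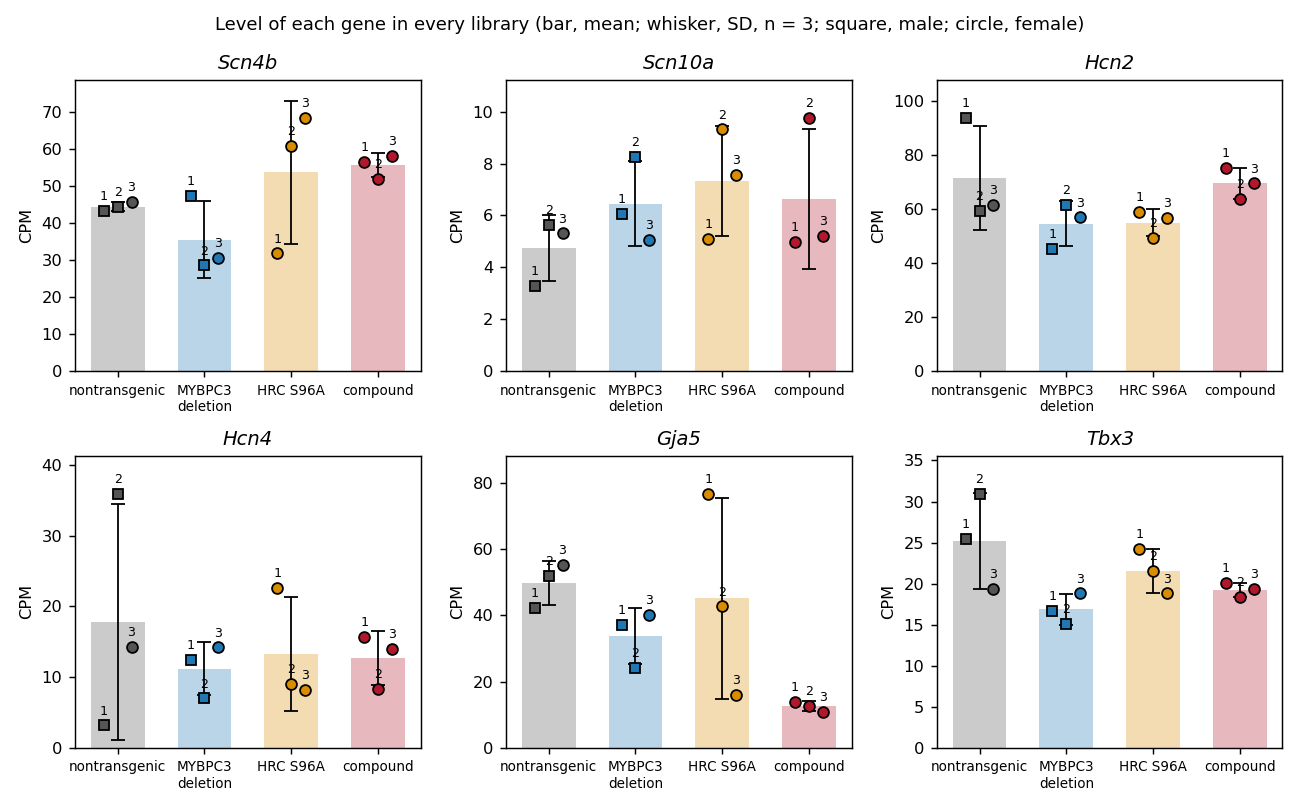
Level of each of the 6 genes in CPM (y axis, from 0) in every library, by group (x axis); bars are group means, whiskers the SD of 3 libraries, squares males and circles females, with replicate numbers above. Gja5 lay at 10.9 to 13.9 CPM in the 3 compound libraries, below every other library, while Hcn4 ranged from 3.16 to 35.9 within the nontransgenic group alone.

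Gja5 (gene 14613, GRCm38.p6 chromosome 3, 97032402 to 97092785, plus strand), which encodes connexin 40, differed most. It had 42.3, 51.8 and 55.1 CPM in the nontransgenic libraries. The deletion libraries held 37.1, 24.0 and 40.1 CPM. Those of the HRC variant held 76.6, 42.7 and 16 CPM. The compound libraries held 13.9, 12.6 and 10.9 CPM, from 252, 225 and 195 reads. All 3 compound hearts were below all 9 others, and the deletion hearts were also all below the nontransgenic ones. HRC variant replicate 3, the library poor in atrial markers, was the lowest outside the compound group.

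The edgeR log2 difference of Gja5 was -2.20 (SE 0.54) for compound against nontransgenic hearts, with an adjusted p of 0.614. Against the deletion it was -1.63 (SE 0.54, adjusted p 0.862), and against the HRC variant -1.85 (SE 0.47, adjusted p 0.607). The single mutants differed less from nontransgenic hearts, by -0.57 (SE 0.45, adjusted p 0.811) with the deletion and -0.34 (SE 0.54, adjusted p 0.978) with the HRC variant. Relative to their SE, the differences of the compound group were larger than those of either single mutant. The interaction, the part of the compound difference beyond both single differences added on the log2 scale, was -1.29 (SE 0.64, adjusted p 0.634). It was -0.68 without HRC variant replicate 1 and -0.21 with the atrial marker level as a covariate.

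Gja5 did pass the threshold under some other analyses. With only the groups compared in the model, compound against nontransgenic hearts gave -2.14 (edgeR, adjusted p 0.0133), where 0.113% of genes were called, and compound against deletion -1.69 (adjusted p 0.0129), where 0.427% were. Without HRC variant replicate 3, the adjusted p was 0.0148 for compound against nontransgenic (log2 -2.20), where 0.0212% of genes were called, and 0.0108 for compound against HRC variant (log2 -2.24), where 0.092% were. Without HRC variant replicate 1, the highest of that group, the latter difference was -1.25. DESeq2 gave an adjusted p of 0.0498 for compound against HRC variant and of 0.0662 for compound against nontransgenic. In the authors' deposited table Gja5 fell in compound against nontransgenic hearts (log2 -1.99, q 2.85e-25), where 2.43% of genes passed a q under 0.05. It also fell in the authors' deposited table in compound against deletion hearts (log2 -1.42, q 2.02e-07), where 4.24% passed. It did not pass there against the HRC variant (log2 -1.84, q 0.235), where 0.389% of genes did. For the deletion and the HRC variant against nontransgenic hearts, the authors' deposited table gave Gja5 q-values of 0.998 and 1, where 0.0945% and 0.0775% of genes passed.

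The share of genes whose groups did not overlap was large for all genes. In compound against nontransgenic hearts 10% of tested genes were lower in every compound library, and in compound against deletion 13.7%. The share was 6.22% in compound against HRC variant and 5.5% in deletion against nontransgenic. With the atrial marker level added to the model as a covariate, the Gja5 difference was -0.73 (SE 0.32) for compound against nontransgenic, -0.18 for compound against deletion and -0.76 for compound against HRC variant. Since that level was low in every compound library, these values cannot separate it from the genotype. Markers of arterial endothelium, another source of connexin 40, summed to 237, 243 and 211 CPM in the compound and to 264, 244 and 264 CPM in the nontransgenic libraries. They summed to 237, 252 and 235 CPM with the deletion and to 290, 226 and 206 CPM with the HRC variant. Their part in the Gja5 differences was not tested.

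**Figure D2:**
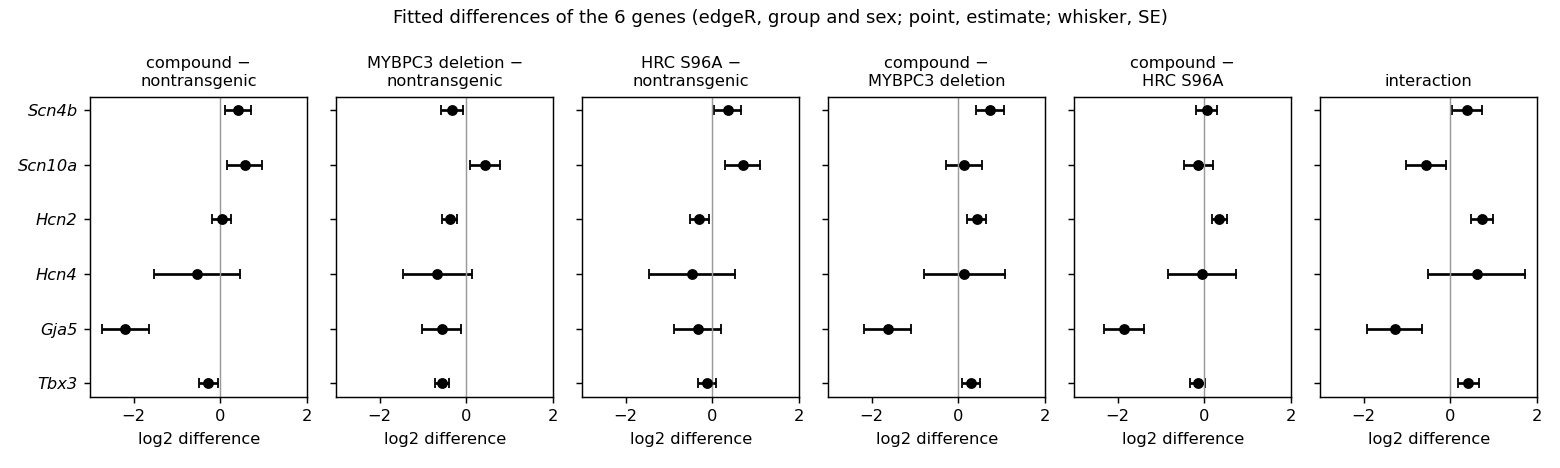
Log2 difference (x axis) of each of the 6 genes in the 6 contrasts of the edgeR model, with whiskers of 1 SE. The Gja5 estimates of the compound group lie between -2.20 and -1.63, and the Hcn4 estimates have the widest whiskers.

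Connexin levels were set side by side in the authors' TPM, which correct for transcript length. A sum was taken over 3 connexins of heart muscle, Gja1, Gja5 and Gjc1 (connexin 45, found in nodal tissue). It leaves out Gja3 and Gja4, at 16.6 and 18.2 TPM in nontransgenic hearts beside 14.3 TPM for Gjc1. Gja5 made up 14.1% ± 2.81 of that sum (SD, n = 3) in the nontransgenic hearts, 8.47% ± 1.89 with the deletion, 10.3% ± 8.33 with the HRC variant and 2.53% ± 0.403 in the compound hearts. The compound share was below every library of each other group, with an exact two-sided permutation p of 0.1 in each comparison, the smallest that 3 against 3 samples allow (0.25 adjusted over 15 share tests). Gja1 was higher in the compound hearts, at 448 ± 38.7 CPM against 279 ± 36.8 in nontransgenic ones (SD, n = 3). Its log2 difference was 0.81 (SE 0.22, adjusted p 0.574). Gja1 was at 328 ± 7.99 CPM with the deletion and 392 ± 96.5 CPM with the HRC variant. Against nontransgenic hearts these groups differed by 0.24 (SE 0.17) and 0.61 (SE 0.215). The compound hearts differed by 0.56 (SE 0.21) from the deletion and by 0.19 (SE 0.17) from the HRC variant. Gjc1 stood at 20.8 ± 1.18 CPM in compound against 17.4 ± 1.91 in nontransgenic hearts, a log2 difference of 0.14 (SE 0.16).

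**Figure D3:**
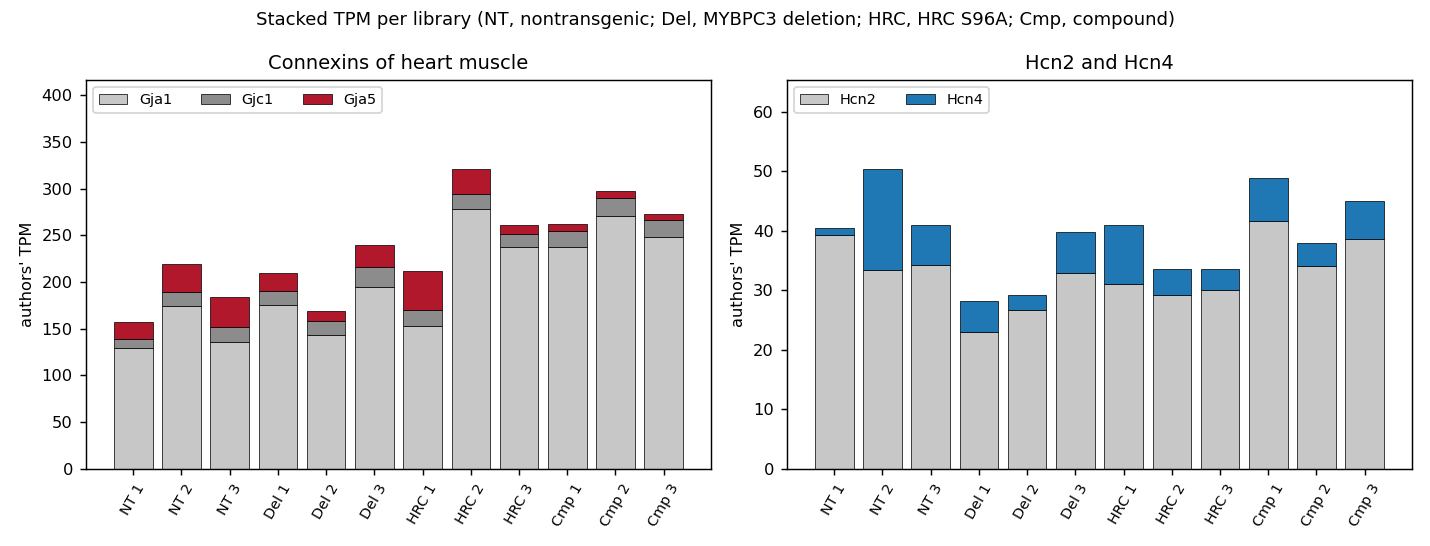
Authors' TPM (y axis) of 3 heart muscle connexins (Gja1, Gja5 and Gjc1) and of Hcn2 and Hcn4, stacked for each library (x axis). In the compound libraries Gja5 is the thin part of the connexin stack (2.53% on average), and Hcn2 lies above Hcn4 on average in every group.

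The promoter of Gja5 is shown because this gene carried the largest difference. It is the RefSeq sequence of the 250 bases before the transcription start at chr3:97032152-97032401 on the plus strand, GRCm38.p6, and that start is also the gene start of the deposited table. Capitals mark the GC box, GGGCGG or its complement CCGCCC, the binding site of Sp1-type factors.
Gja5: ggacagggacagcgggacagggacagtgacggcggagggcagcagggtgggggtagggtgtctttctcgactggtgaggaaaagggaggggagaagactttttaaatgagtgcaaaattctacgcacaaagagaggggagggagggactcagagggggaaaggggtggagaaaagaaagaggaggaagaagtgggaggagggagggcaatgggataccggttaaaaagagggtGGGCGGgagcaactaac
Its GC box lies 17 bases before the start. GC content was 56.4%, against a median of 52.4% over the 32851 promoters of the table, of which 32.7% hold a GC box. The GC box was chosen after the sequences were seen. Neither the T-box core GGTGTG (in 16.3% of promoters of this length), the NKX2-5 element TNAAGTG (10.1%) nor the GATA letters AGATAA (9.99%), each searched on both strands, occurred in this window or in those of Scn4b, Scn10a, Hcn2 and Hcn4. A match or its lack describes these letters only. In the GENCODE annotation vM21, Gja5 overlaps 4930573H18Rik on the opposite strand, and whether counting used strand is not stated.

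Scn4b (gene 399548, chromosome 9, 45137986 to 45156606, plus strand), a beta subunit of the sodium channel, had 43.2, 44.4 and 45.8 CPM in the nontransgenic libraries. The deletion libraries held 47.4, 28.6 and 30.6 CPM, and the HRC variant libraries 31.8, 60.8 and 68.4. The compound libraries held 56.6, 52.0 and 58.2 CPM. All compound hearts lay above all nontransgenic and all deletion hearts, whereas the HRC variant group overlapped with every other. Of all tested genes, 8.79% were higher in every compound than in every nontransgenic library, and 11.5% than in every deletion library.

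The log2 difference of Scn4b was 0.73 (SE 0.32) for compound against deletion hearts, with an adjusted p of 0.862 in edgeR. The authors' deposited table gave 0.66 for it, with a q of 0.0384, and apart from Gja5 it was the only one of the 6 genes with a q under 0.05 there. Against nontransgenic hearts the compound difference was 0.40 (SE 0.30, adjusted p 0.924), and against the HRC variant 0.05 (SE 0.25, adjusted p 0.993). The single mutants gave -0.33 (SE 0.25) with the deletion and 0.35 (SE 0.30) with the HRC variant, neither with an unadjusted p under 0.05. With the atrial level as a covariate, the compound difference from nontransgenic hearts was -0.01.

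The Scn4b promoter is given for contrast with that of Gja5, since here the compound hearts lay above all nontransgenic and deletion hearts. They did not lie above all HRC variant hearts. It covers chr9:45138374-45138623, plus strand, GRCm38.p6, before a RefSeq start 638 bases from the gene start of the deposited table.
Scn4b: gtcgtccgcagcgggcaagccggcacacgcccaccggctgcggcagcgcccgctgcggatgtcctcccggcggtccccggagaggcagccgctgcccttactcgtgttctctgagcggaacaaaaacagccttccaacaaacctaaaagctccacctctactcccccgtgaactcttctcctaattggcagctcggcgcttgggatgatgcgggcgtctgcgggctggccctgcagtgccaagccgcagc
It holds no GC box in either direction, at a GC content of 66.0%.

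Scn10a (gene 20264, chromosome 9, 119608456 to 119719322, minus strand) encodes a sodium channel pore best known from sensory neurons. It was the scarcest of the 6 genes, with 55 to 178 reads per library. Its level was 3.28, 5.65 and 5.31 CPM in nontransgenic hearts and 6.06, 8.25 and 5.05 CPM with the deletion. It was 5.1, 9.31 and 7.55 CPM with the HRC variant and 4.98, 9.76 and 5.2 CPM in the compound hearts. All 4 groups overlapped. The largest log2 difference was 0.69 (SE 0.40, adjusted p 0.884) with the HRC variant against nontransgenic hearts, followed by 0.55 (SE 0.40, adjusted p 0.912) for compound and 0.43 (SE 0.34, adjusted p 0.805) for deletion against nontransgenic.

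Nontransgenic replicate 1 was lowest for Scn10a, and all 3 estimates against that group were above 0. Summed markers of neurons and Schwann cells were 70.8, 116 and 71.6 CPM in the nontransgenic libraries and 78.7, 190 and 65.5 CPM with the deletion. They were 83.3, 64 and 46.2 CPM with the HRC variant and 49.1, 51.7 and 48.0 CPM in the compound libraries. Replicate 2 was highest of its group in both these markers and Scn10a in the nontransgenic, deletion and compound groups, and not in these markers in the HRC variant group. Their part in the result was not tested.

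Hcn2 (gene 15166, chromosome 10, 79716634 to 79736108, plus strand), the HCN isoform of working muscle, had 93.9, 59.4 and 61.7 CPM in the nontransgenic libraries. It had 45.4, 61.5 and 57.0 CPM with the deletion, and 59.0, 49.4 and 56.8 CPM with the HRC variant. The compound hearts held 75.4, 63.8 and 69.6 CPM. The HRC variant hearts were all below the nontransgenic ones by a narrow margin, 59.0 against 59.4 CPM for the nearest pair, as were 3.76% of tested genes. The compound hearts were all above those of both single mutants. Of all tested genes, 6.2% were higher in every compound than in every HRC variant library, and 11.5% than in every deletion library.

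For Hcn2 the log2 difference from nontransgenic hearts was -0.38 (SE 0.18, adjusted p 0.607) with the deletion, -0.30 (SE 0.22, adjusted p 0.917) with the HRC variant and 0.03 (SE 0.22, adjusted p 0.996) in the compound hearts. Compound against deletion gave 0.42 (SE 0.21) and compound against HRC variant 0.34 (SE 0.18). The interaction was 0.72 (SE 0.25, adjusted p 0.563), the largest of the 6 genes relative to its SE. It was 0.44 in females alone, with 1 nontransgenic and 1 deletion heart left, and 0.49 without nontransgenic replicate 1. Without that replicate the difference of the deletion was -0.14. The level of nontransgenic replicate 1 stands out on the CPM scale. In the authors' TPM the nontransgenic group was at 35.7 ± 3.23 (SD, n = 3), the deletion at 27.6 ± 5.04, the HRC variant at 30.1 ± 0.981 and the compound group at 38.1 ± 3.74.

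Hcn4 (gene 330953, chromosome 9, 58823512 to 58860955, plus strand), the leading pacemaker isoform, varied most among the 6 genes within the nontransgenic group, relative to its mean. It had 3.16, 35.9 and 14.3 CPM in the nontransgenic libraries, from 53, 699 and 294 reads. It had 12.4, 6.98 and 14.2 CPM with the deletion, and 22.6, 9.0 and 8.16 CPM with the HRC variant. The compound hearts held 15.7, 8.36 and 14.0 CPM. Both the highest and the lowest library were nontransgenic, and every group overlapped with every other. The log2 difference from nontransgenic hearts was -0.54 (SE 0.99) in the compound, -0.68 (SE 0.80) in the deletion and -0.47 (SE 0.98) in the HRC variant hearts, with adjusted p of 0.99, 0.886 and 0.986. Without nontransgenic replicate 2 these were 0.19, 0.81 and 0.24, so that the sign of each rested on that library.

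Across the 8 libraries with the higher atrial level, Hcn4 followed the atrial markers. Pearson's r between its log2 CPM and the mean log2 CPM of the 15 markers was 0.946 (exact permutation p 0.000496, 0.00298 adjusted over 6 genes), and Spearman's rho was 0.976 (exact permutation p 0.000397, adjusted 0.00238). Without the 2 libraries farthest from the median atrial level, r was 0.866 over 6 libraries. With Myl7, Myl4 and Sln alone as the markers, an alternative chosen after seeing the data, r was 0.772 (exact permutation p 0.0194, adjusted 0.116), and 0.49 without the 2 farthest libraries. The relation therefore depended on which markers stood for the atrium. Each sex held 4 of these libraries, too few for a value within sex. They came from the nontransgenic, deletion and HRC variant groups, and the permutations took no account of genotype or sex. The 4 libraries poor in atrial markers held 8.16 to 15.7 CPM of Hcn4, within the range of the other 8. Each held more than nontransgenic replicate 1 and deletion replicate 2.

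**Figure D4:**
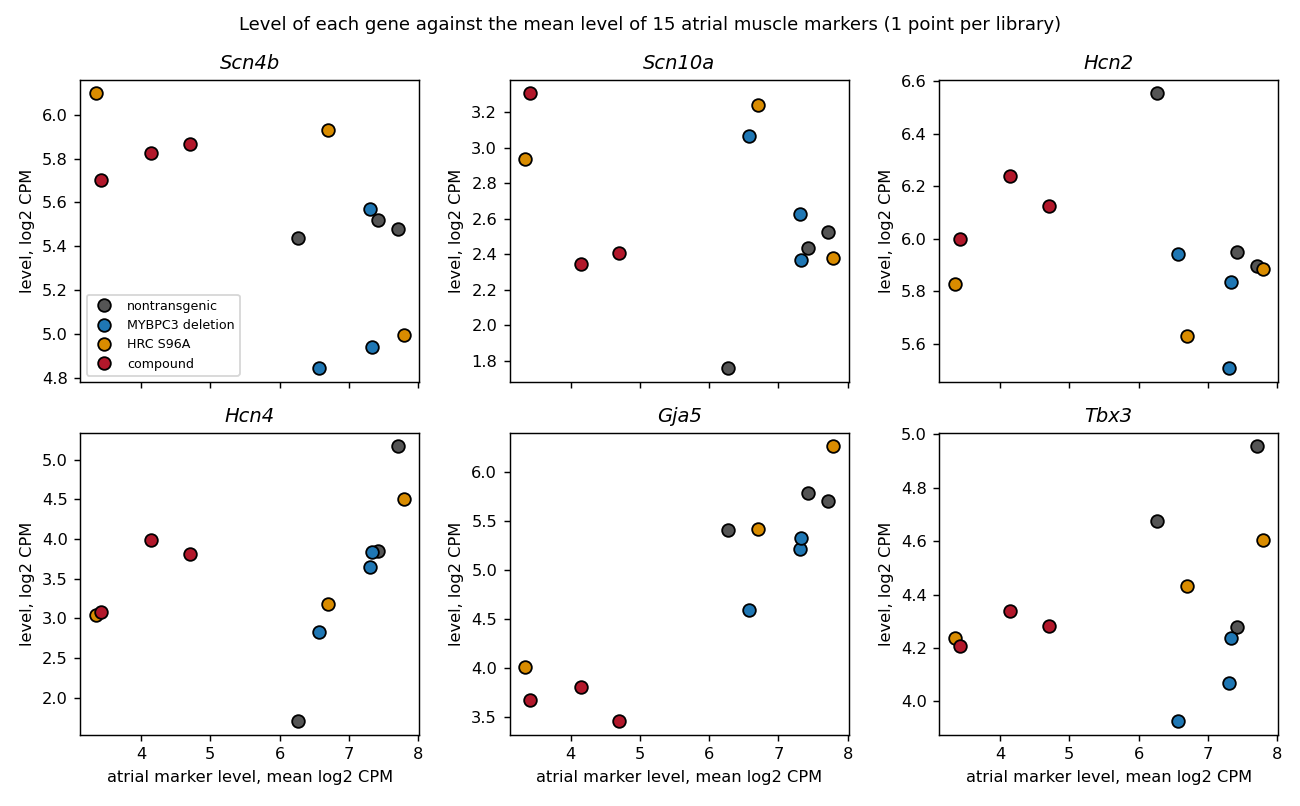
Log2 CPM of each of the 6 genes (y axis) against the mean log2 CPM of 15 atrial muscle markers (x axis), 1 point per library. The 4 libraries at 3.34 to 4.70 on the x axis are HRC variant replicate 3 and the compound group, and Hcn4 rises with the atrial level among the other 8 (r 0.946).

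For Gja5 the same relation over the 8 libraries had an r of 0.659 (exact permutation p 0.0731, 0.219 adjusted over 6 genes) and a rho of 0.714 (exact permutation p 0.0576, adjusted 0.173), with r 0.643 without the 2 farthest libraries. The remaining r values were 0.261 for Tbx3, -0.462 for Hcn2, -0.13 for Scn4b and -0.0457 for Scn10a, none of which passed. For these relations no value was pooled over all 12 libraries, since these form 2 clusters. On the length-corrected TPM scale Hcn2 was well above Hcn4, at 35.7 ± 3.23 against 8.24 ± 8.02 TPM (SD, n = 3) in nontransgenic hearts and at 38.1 ± 3.74 against 5.83 ± 1.84 TPM in compound hearts.

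The promoters of the HCN pair are shown because both are richer in GC than that of Gja5, and hold more GC boxes (capitals, as above). That of Hcn2 is at chr10:79716384-79716633, plus strand, with boxes 80, 74 and 36 bases before the start, which is also the deposited gene start. That of Hcn4 is at chr9:58822699-58822948, plus strand, with boxes 196 and 163 bases before a RefSeq start 563 bases from the deposited one.
Hcn2: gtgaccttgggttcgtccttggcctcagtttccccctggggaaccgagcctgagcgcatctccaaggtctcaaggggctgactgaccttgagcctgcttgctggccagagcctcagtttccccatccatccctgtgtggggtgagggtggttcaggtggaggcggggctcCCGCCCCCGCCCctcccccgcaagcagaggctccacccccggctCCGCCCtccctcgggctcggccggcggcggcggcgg
Hcn4: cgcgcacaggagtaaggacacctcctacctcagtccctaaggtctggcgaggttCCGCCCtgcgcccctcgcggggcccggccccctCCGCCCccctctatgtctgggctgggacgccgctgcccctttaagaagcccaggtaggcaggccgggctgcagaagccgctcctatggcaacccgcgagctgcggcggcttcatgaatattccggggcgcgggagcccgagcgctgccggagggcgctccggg
GC content was 70.4% for Hcn2 and 71.2% for Hcn4.

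Tbx3 (gene 21386, chromosome 5, 119587384 to 119684724, plus strand) had 25.4, 30.9 and 19.3 CPM in the nontransgenic libraries. It had 16.7, 15.1 and 18.8 CPM with the deletion, and 24.2, 21.5 and 18.8 CPM with the HRC variant. The compound hearts held 20.1, 18.4 and 19.3 CPM. All deletion hearts lay below all nontransgenic hearts, a pattern shared by 5.5% of tested genes. The log2 difference of the deletion was -0.56 (SE 0.17, edgeR adjusted p 0.434). In females alone it was -0.03, with 18.8 CPM in the deletion and 19.3 CPM in the nontransgenic female, so that the estimate rested on the males of both groups.

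The other differences of Tbx3 were smaller. They were -0.28 (SE 0.21) for compound and -0.12 (SE 0.21) for HRC variant against nontransgenic hearts, 0.28 (SE 0.21) for compound against deletion and -0.16 (SE 0.17) for compound against HRC variant. In GENCODE vM21 the span of Tbx3 overlaps Tbx3os1 and Gm43399 on the opposite strand and Gm16063 and Gm16064 on its own. Shared exons were not examined, and whether counting used strand is not stated. Its counts may therefore hold reads of these genes.

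Levels can be ordered across genes only per length. In the authors' TPM the nontransgenic order was Hcn2 (35.7), Gja5 (26.5 ± 7.21), Scn4b (17.1 ± 3.07), Tbx3 (8.62 ± 2.55), Hcn4 (8.24 ± 8.02) and Scn10a (1.24 ± 0.484), each mean ± SD of 3 hearts. Neighbours from Tbx3 to Hcn4 did not differ beyond their spread. In the compound hearts Scn4b was second at 22.8 ± 1.71 TPM, and Gja5 stood at 6.99 ± 0.842 TPM, beside Tbx3 at 7.02 ± 0.381 and Hcn4 at 5.83 ± 1.84.

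Wider lists of related genes gave no call in edgeR either, in any of the 6 contrasts. For comparison, of all 13849 tested genes 6965 were lower and 6884 higher by sign in compound against nontransgenic hearts. Of these, 6.36% had an unadjusted edgeR p under 0.05. Of 16 tested sodium channel subunits and partners, 12 were lower and 4 higher by sign in compound against nontransgenic hearts, with a median log2 difference of -0.23. Among those with the smallest p were Fgf12, an intracellular modulator of channel gating (-4.51, SE 1.63), and its relative Fgf14 (-0.87, SE 0.46). Of 15 pacemaker channels and partners, 12 were lower and 3 higher, with a median of -0.75. The 3 with an unadjusted p under 0.05 were Cacna1g, a T-type calcium channel (-0.75, SE 0.29), Kcnj3, a subunit of the muscarinic potassium channel (-1.18, SE 0.44), and Cacna1d, an L-type channel of the node (-1.99, SE 0.76), followed by the calcium channel subunit Cacna2d2 (-3.25, SE 1.41). Cacna1g averaged 40.8 ± 18.2 CPM in nontransgenic and 35 ± 5.23 CPM in compound hearts (SD, n = 3), and these groups overlapped. Fitted differences include the sex term, and only the nontransgenic and deletion groups held both sexes. Kcnj3 and Fgf12 also stand on the list of atrial markers.

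Among 8 other tested gap junction genes (connexins and the scaffold Tjp1) 5 were lower and 3 higher, with a median of -0.15. Beside 6.36% of all tested genes, 3 had an unadjusted edgeR p under 0.05. These were Gja1 (0.81, SE 0.22), Gjb5 (-2.97, SE 1.18) and Gjd3. Gjd3 had 2, 20 and 11 reads in the nontransgenic and 0 in each compound library. Of 21 transcription factors and markers of the conduction system 14 were lower and 7 higher, with a median of -0.15. Those with an unadjusted p under 0.05 were Hopx, a homeodomain cofactor (0.48, SE 0.15), Tbx5, a T-box activator of atrial and conduction genes (-1.27, SE 0.46), and Cpne5 (-3.67, SE 1.40). Etv1, a transcription factor of the fast conduction tissue, came next (-0.75, SE 0.35). Tbx5 had 126 ± 49.5 CPM in nontransgenic and 61.8 ± 5.89 CPM in compound hearts (SD, n = 3). Beside these lists, 14 of the 15 atrial markers were lower by sign in the compound hearts, with a median of -2.96, and 9 of 10 ventricular markers were higher, with a median of 0.40.

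The genes whose log2 CPM ran most like each of the 6 over the 12 libraries were sought among 11565 genes, as a description only. All points share the same libraries and depth, and they span both the 8 libraries rich in atrial markers and the 4 poor in them. For Gja5 these were Sbk2 (r 0.965), Cilp2 (0.947), Kctd15 (0.946) and Ahsg (0.944). Sbk2 averaged 34.3 CPM in nontransgenic and 6.18 CPM in compound hearts, and Cilp2 34.8 and 0.779 CPM. For Hcn4 the nearest were Stt3b (0.890), Rgs6 (0.879), Smad9 (0.879) and Atl3 (0.874), and for Scn4b Map3k1 (0.933), Gfm2 (0.926), Exoc3 (0.917) and Ube3b (0.914). For Hcn2 they were Smpd2 (0.890), Sars2 (0.878) and Apeh (0.870). For Scn10a they were Fbxw7 (0.848), Gabpb2 (0.840), Nap1l1 (0.838) and Fam49b (0.834), and for Tbx3 Hdac6 (0.838), Ptpn1 (0.822), Dnmt1 (0.820) and Pde10a (0.820). Among the 6 genes themselves r ran from -0.597, between Scn10a and Hcn2, to 0.468, between Gja5 and Tbx3.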

How the data were processed

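Per the labels' protocols, oligo(dT) beads served to select mRNA, and libraries were read as DNA nanoballs. The authors deposited, per the file headers, an expected count, a TPM and an FPKM value per gene and library, and, for pairs of groups, their own log2 fold change and q-value from DESeq2. The build GRCm38.p6 and the tools HISAT, Bowtie2 and DESeq2 come from the submitters' processing notes. Their roles, the counting tool and its use of strand are not stated there. Counts (94.3% whole numbers, with no tolerance) were rounded and fitted in edgeR 4.0.16 (R 4.3.3) by the robust quasi-likelihood test over all 12 libraries, with TMM scaling, a minimum count of 10, and group and sex as terms (7 residual degrees of freedom). This left 13849 genes and removed 3530, and p-values were adjusted over all tested genes by the Benjamini-Hochberg method. CPM values use TMM library sizes, and correlations the log2 CPM with a prior count of 2. An SE is the log2 difference over the root of F. Alternatives were DESeq2 1.42.0, limma-voom 3.58.1, other filters, scalings, samples and covariates. The test was also run on simulated counts with the same spread for every gene and no atrial clusters. That run does not show how the test behaves on these data. Named besides the 6 genes are their relatives Gja1, Gjc1 and Tbx5, up to 4 genes of each list with the smallest p in compound against nontransgenic hearts, leading cell type markers, and for each gene up to 4 with the highest Pearson r of log2 CPM. A few further genes that this rule names, and the family shares that need them, are not reported here. The members, lists and tests were chosen with earlier results of these data known. Of the 17380 lines, 1 held no values, and 25 symbols changed to dates were restored. Promoters are from RefSeq, with 5 of the 6 genes matched.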

Additional observations from a re-analysis of the deposited data

How the results depend on the processing

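None of the 6 genes was called in the main edgeR model. The number called became 1, Gja5 in each case, under DESeq2 for compound against HRC variant, with only the groups compared in the model for compound against nontransgenic and compound against deletion, and without HRC variant replicate 3 for compound against nontransgenic and compound against HRC variant. Over the leave-one-out fits it ranged from 0 to 1 in compound against nontransgenic and compound against HRC variant, and was 0 in the other contrasts. Of all genes, 0.113% and 0.427% were called in the fits of only the groups compared, and 0.0212% and 0.092% without HRC variant replicate 3, in the order given. Gja5 was below 0 in compound against each other group under every alternative, from -2.89 with the replicate block to -0.73 with the atrial covariate against nontransgenic hearts. The main model did not treat samples with the same replicate number as paired. Of 18 such pairs across groups, 5 had a correlation of deviations from the group means over 0.1 (range -0.24 to 0.316). Whether the number paired the samples was not tested, and in the nontransgenic and deletion groups it went with sex. With the replicate block no member was called. That block gave Gja5 -2.29 in compound against deletion and -1.63 in compound against HRC variant.

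The sign turned in the following estimates, and the cause was not tested. For the compound group the atrial covariate cannot be told apart from the genotype. With the atrial level as a covariate, Gja5 was 0.032 and Hcn4 0.17 in HRC variant against nontransgenic, Tbx3 was 0.00038 there, and in compound against nontransgenic Hcn2 was -0.12, Hcn4 1.01, Scn4b -0.0097 and Tbx3 0.015. In compound against HRC variant the same covariate gave Hcn4 0.84, Scn4b -0.14 and Tbx3 0.014, and in compound against deletion Scn10a -0.14. In females alone, Hcn4 was -0.17 in compound against deletion, -0.061 in the interaction and 0.0042 in deletion against nontransgenic, Scn10a -0.061 in deletion against nontransgenic, and Tbx3 0.0031 in compound against nontransgenic, 0.16 in HRC variant against nontransgenic and -0.13 in the interaction. With only the groups compared, Hcn4 was -0.17 in compound against deletion and Tbx3 0.16 in HRC variant against nontransgenic. Under limma-voom Hcn4 was 0.031 in compound against HRC variant and -0.13 in compound against deletion, and with the replicate block Hcn4 was -0.060 and Scn10a -0.040 in the latter. Without the sex term Hcn2 was -0.041 in compound against nontransgenic.

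Leaving out each library in turn, the ranges that crossed 0 were -0.95 to 0.038 for Gja5 in HRC variant against nontransgenic, -0.22 to 0.18 for Hcn2 in compound against nontransgenic, and for Hcn4 -0.30 to 0.56 in compound against HRC variant, -0.62 to 0.83 in compound against deletion, -1.16 to 0.19 in compound against nontransgenic, -1.11 to 0.24 in HRC variant and -1.14 to 0.81 in deletion against nontransgenic, and -0.86 to 1.23 in the interaction. They were -0.51 to 0.085 and -0.36 to 0.40 for Scn10a in compound against HRC variant and against deletion, -0.22 to 0.27 for Scn4b in compound against HRC variant, and -0.77 to 0.0020 and -0.62 to 0.15 for Tbx3 in compound and in HRC variant against nontransgenic. DESeq2 gave no adjusted p for Hcn4, Scn10a and Tbx3 in the interaction and for Scn10a in deletion against nontransgenic. Scn10a rested on 55 to 178 reads per library, which limits its precision. The females-only fits leave 1 nontransgenic and 1 deletion library, which are assumed to vary like the other groups.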
